A study of Mus musculus with 8 samples.

Results

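The interleukin-6 (IL-6) family was examined in the middle colon of mice with chemically induced colitis, as 10 genes for its cytokines, receptors and feedback inhibitor: Il6, Il11, Osm, Lif, Il6ra, Il6st, Osmr, Lifr, Il11ra1 and Socs3. The genes were chosen by name, with earlier results of these data known. Each was read from the array probe set whose platform annotation gives that 1 symbol, taking the probe set with the highest mean over all arrays where there were several. 9 of the 10 genes were found among the 22180 genes of the table, and Il11ra1 was not analysed here. Colon RNA came from 4 knockout mice (Trim58-/-, KO) and 4 wild type mice (Trim58+/+, WT), with 1 whole-transcript array per mouse. All 8 were female, 9 weeks old, of the strain C57BL/6-Trim58tm2313Arte and kept free of specific pathogens. All drank 4% dextran sodium sulfate (DSS), which injures the colon epithelium, for 7 days and then plain water for 5 days before the colon was taken on day 12. There was no untreated colon, so the values compare genotypes within colitis. Trim58 encodes a TRIM-type ubiquitin ligase, and the labels name no cell type to which its loss is limited.

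IL-6 family cytokines signal through receptor complexes that share gp130, the product of Il6st. IL-6 and IL-11 first bind their own alpha receptors, whereas oncostatin M (Osm) and leukaemia inhibitory factor (Lif) join gp130 to OSMR or LIFR. The complexes activate JAK kinases and the transcription factor STAT3, and STAT3 induces Socs3, which shuts gp130 signalling down again. In the injured gut the family is known for driving epithelial repair and acute-phase genes, with fibroblasts and myeloid cells as main cytokine sources.

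The promoters shown are those of the 3 genes that passed the test below, chosen for that reason, and of Socs3, the feedback gene. Each window runs from 250 bases before to 50 bases after the annotated start, 5′ to 3′ on the gene's strand (RefSeq sequence, build GRCm38.p6). Capitals mark matches to TGANTCA (AP-1), GGGA, any base and TTTCC (NF-kB) or TTCNNNGAA (STAT), searched on both strands, and no marked match overlaps another.
Il6 chr5:30012864-30013163, + strand: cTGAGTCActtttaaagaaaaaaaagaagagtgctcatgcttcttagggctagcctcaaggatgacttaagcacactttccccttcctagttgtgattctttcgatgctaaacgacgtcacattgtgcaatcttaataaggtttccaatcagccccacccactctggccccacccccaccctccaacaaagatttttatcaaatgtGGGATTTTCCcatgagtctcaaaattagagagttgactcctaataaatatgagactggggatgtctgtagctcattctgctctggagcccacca
Il11 chr7:4778092-4778391, - strand: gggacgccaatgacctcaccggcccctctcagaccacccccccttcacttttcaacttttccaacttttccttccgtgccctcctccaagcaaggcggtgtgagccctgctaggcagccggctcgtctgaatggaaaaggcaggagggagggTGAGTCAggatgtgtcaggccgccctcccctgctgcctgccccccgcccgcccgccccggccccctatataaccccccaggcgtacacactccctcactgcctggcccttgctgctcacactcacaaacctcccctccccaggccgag
Osmr chr15:6874264-6874563, - strand: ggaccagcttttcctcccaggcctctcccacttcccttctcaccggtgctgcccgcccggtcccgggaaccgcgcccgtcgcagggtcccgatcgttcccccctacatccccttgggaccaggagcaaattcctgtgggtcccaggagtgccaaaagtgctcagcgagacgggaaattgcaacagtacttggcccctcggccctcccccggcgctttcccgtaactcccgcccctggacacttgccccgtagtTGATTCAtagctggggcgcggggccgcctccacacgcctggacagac
Socs3 chr11:117969317-117969616, - strand: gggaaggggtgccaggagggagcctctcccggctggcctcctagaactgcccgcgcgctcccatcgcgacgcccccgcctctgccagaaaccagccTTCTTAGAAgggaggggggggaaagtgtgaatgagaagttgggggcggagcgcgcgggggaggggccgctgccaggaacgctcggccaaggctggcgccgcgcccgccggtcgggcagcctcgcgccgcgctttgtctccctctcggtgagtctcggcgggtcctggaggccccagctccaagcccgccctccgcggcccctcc
The Il6 window held an NF-kB match starting 44 bases before the start and an AP-1 match 249 bases before it. The Il11 window shown held an AP-1 match 98 bases before the start, and the Osmr window one at base 4 of the transcript. The Socs3 window held a STAT match 154 bases before the start. Another window of Il11, not shown, held no match. The window of Lif, which was not called, also held an AP-1 match, 228 bases before the start. The 12 windows listed came from 9 of the 10 genes, with Il11ra1 among them and no window for Osm. Of these windows 4 held the AP-1 letters, 1 the NF-kB letters and 1 the STAT letters. Among all 32851 promoter windows of this length the shares were 7.81%, 0.411% and 8.3%. A match is a run of letters and not a shown binding site.

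7 of the 9 measured genes had every knockout value above every wild type value, and 3 of them rose in the knockout by the test over all genes: the cytokine genes Il6 and Il11 and the receptor gene Osmr. The test was limma, with p-values adjusted by Benjamini and Hochberg's method over all 22180 genes and called under 0.05. It called 0.392% of all genes higher and 0.185% lower. Over all genes 3.79% had every knockout value above every wild type value and 5.02% every knockout value below. At an unadjusted limma p under 0.05, 7 of the 9 were higher and 0 lower, against 6.22% and 8.1% of all genes, and 0 of the 9 were called lower after adjustment. Their median log2 difference (knockout minus wild type) was 0.73, against -0.0142 over all genes. The genes were chosen with earlier results of these data known, so these counts and this median are no independent evidence. Lif and Il6ra were the 2 genes whose genotypes overlapped. An exact two-sided permutation test gave p = 0.0286 for each of the other 7, the smallest that 70 assignments of the arrays allow, which restates that their genotypes do not overlap.

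**Figure D1:**
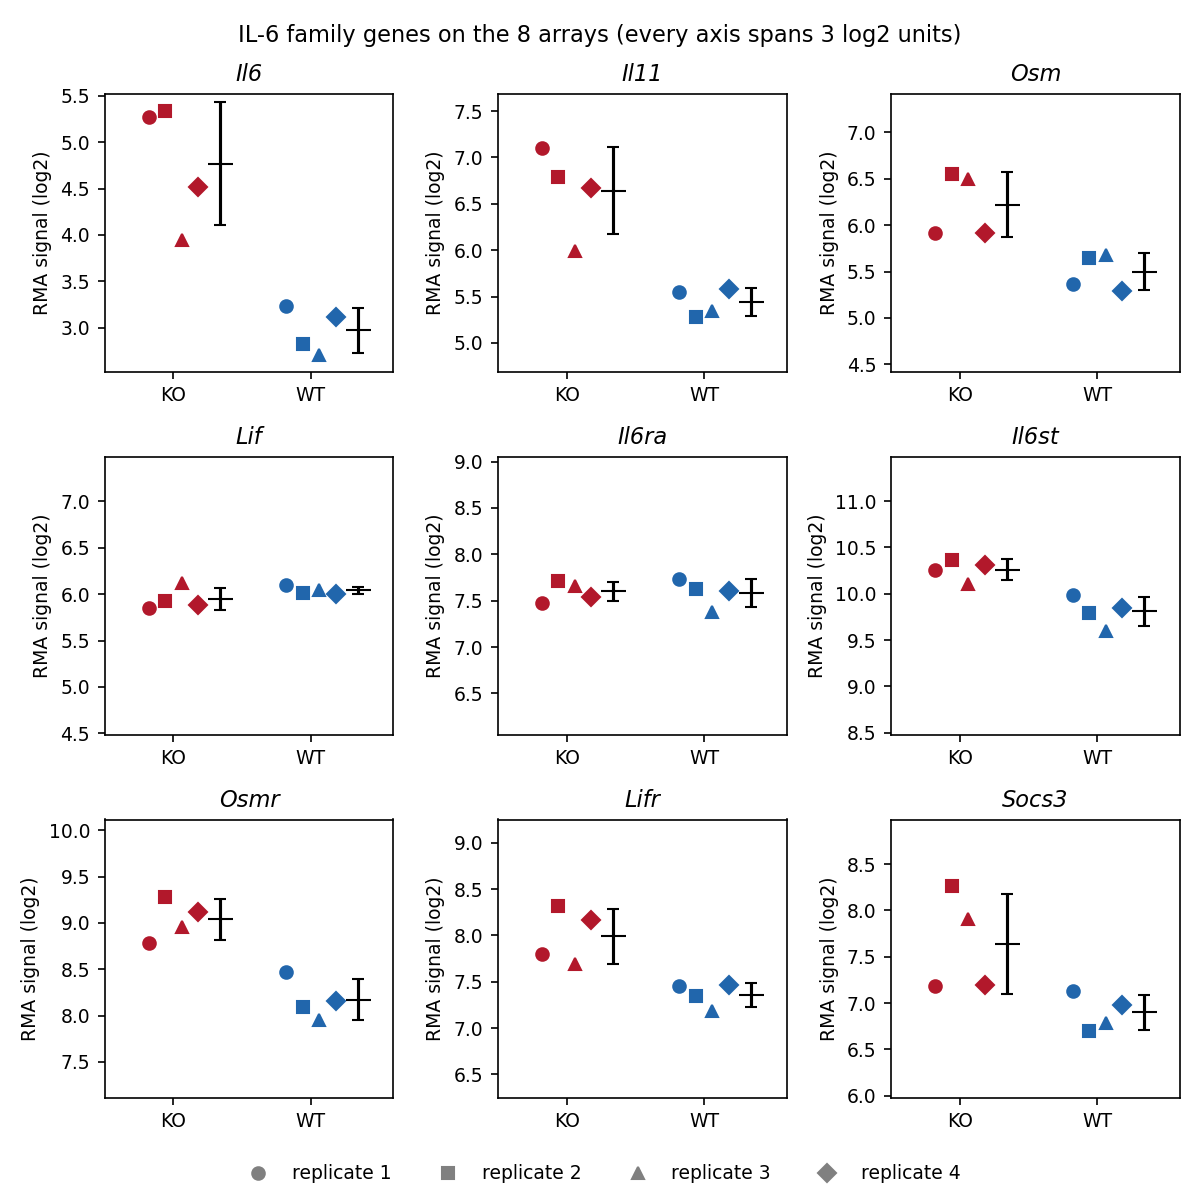
Array signal (RMA, log2) of the 9 measured IL-6 family genes, with a panel per gene, knockout (red) left of wild type (blue), a marker shape per replicate, and mean and SD (n = 4) beside the points; every axis spans 3 log2 units. The genotypes are apart in 7 panels and overlap in Lif and Il6ra; knockout replicate 3 is the lowest knockout for Il6, Il11, Il6st and Lifr, while replicates 2 and 3 are the highest for Osm and Socs3.

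Several facts of the whole series touch these results. The probe set of Trim58 itself read 4.91, 5.37, 4.82 and 5.11 in knockout replicates 1 to 4 and 5.22, 5.07, 5.18 and 5.03 in wild type replicates 1 to 4 (log2 signal; limma adjusted p = 0.839), so it does not check the labels. The sources used here do not say whether it lies in the deleted part. The 8 markers of epithelium were bright in every array, with a list mean of 10.85 to 10.99 in knockouts and 10.97 to 11.08 in wild types. Of these 8, 0 had a difference above 0 (median -0.12) and limma called 0. For 2 of them every knockout value lay below every wild type value. The mean of a list of pancreatic acinar genes (10 measured) was 10.86, 11.92, 5.79 and 11.59 in knockout replicates 1 to 4. In wild types it was 5.91 to 6.03. Knockout replicate 3 is thus the one knockout without this raised signal, and values are given for it apart from the other 3. Not all genes of this list are dim in wild type colon: Cela1 and Clps had wild type means of 10.33 and 7.98. The labels name separate mice. In whole tissue, more cells of a type and more RNA per cell cannot be told apart.

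Among the ligands, Il6, the founding cytokine of the family, read 5.27, 5.34, 3.95 and 4.52 in knockout replicates 1 to 4, against 3.23, 2.82, 2.71 and 3.11 in wild type replicates 1 to 4 (log2 signal). Every knockout lay above every wild type, with replicates 1 and 2 highest. The difference was 1.80 on the log2 scale (95% interval 1.18 to 2.41), a 3.48-fold higher signal (limma adjusted p = 0.0230). The wild type mean of 2.97 ± 0.24 (SD, n = 4) was below the median of 1105 olfactory receptor genes in wild type (3.30), a class of genes not expected in colon. RMA compresses differences of such dim probe sets. Knockout replicate 3 lay 0.98 above the wild type mean, and the other 3 knockouts lay 2.07 above it as an average. The call ended without knockout replicate 1 or 2 (1.63 and 1.61, limma adjusted p = 0.0641 and 0.0655) and without wild type replicate 2, 3 or 4 (1.75, 1.71 and 1.85, adjusted p between 0.0586 and 0.0968).

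Il11, a stromal cytokine tied to tissue remodelling and epithelial repair, read 7.10, 6.79, 5.99 and 6.67 in the knockout replicates, against 5.55, 5.28, 5.34 and 5.58 in the wild type replicates (log2 signal). The groups did not overlap, and knockout replicate 3 was the lowest knockout. The difference was 1.20 (95% interval 0.76 to 1.65), a 2.30-fold higher signal in the knockout (limma adjusted p = 0.0310). Il11 was 0.55 above the wild type mean in knockout replicate 3 and 1.42 above it on average in the others. Of the 8 fits that left out 1 array, Il11 passed in the 1 without knockout replicate 3 (difference 1.42). In the other 7, without knockout replicate 1, 2 or 4 or any wild type replicate, the difference was 1.05 to 1.25 and the adjusted p 0.0518 to 0.128.

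Osm encodes oncostatin M, a product of neutrophils, monocytes and T cells that acts on stroma and epithelium. It read 5.92, 6.55, 6.50 and 5.92 in the knockout replicates, against 5.37, 5.65, 5.68 and 5.29 in the wild type replicates (log2 signal). Knockout replicates 2 and 3 were high and replicates 1 and 4 lay 0.24 above the highest wild type. The difference was 0.73 (95% interval 0.36 to 1.10) and did not pass (limma adjusted p = 0.0898). Osm stood 1.01 above the wild type mean in knockout replicate 3 and 0.64 above it on average in the other knockouts.

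Lif, a cytokine that acts through LIFR and gp130, read 5.85, 5.93, 6.12 and 5.88 in the knockout replicates, against 6.10, 6.01, 6.05 and 6.00 in the wild type replicates (log2 signal). The genotypes overlapped. The difference was -0.09 (95% interval -0.27 to 0.09; limma adjusted p = 0.682), so a fall beyond 0.27 or a rise beyond 0.09 lies outside the interval.

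**Figure D2:**
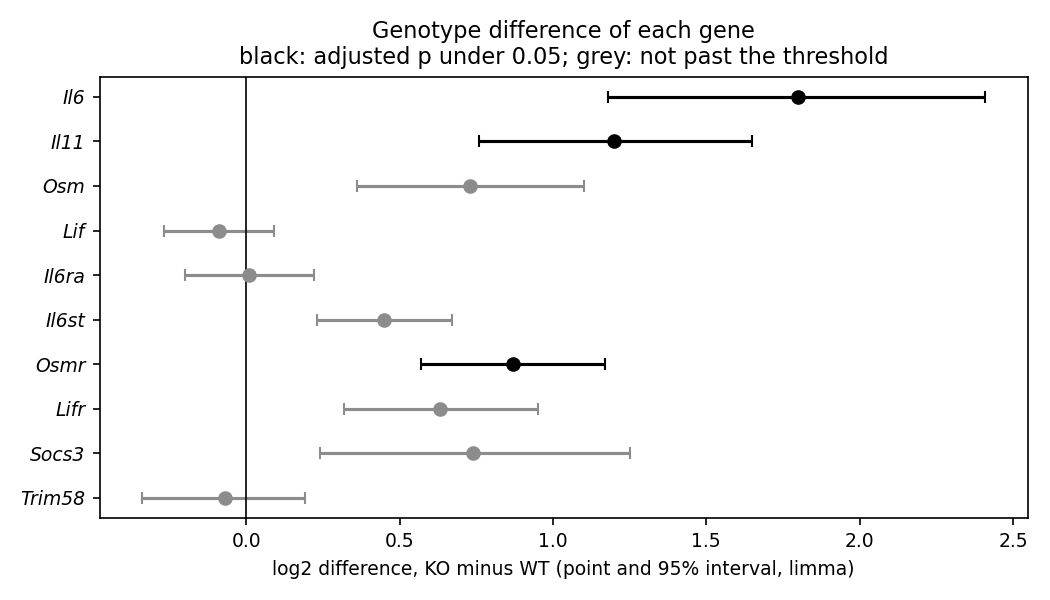
Log2 difference, knockout minus wild type, of each measured gene and of Trim58, with limma's 95% interval (n = 4 per genotype); black points pass the adjusted threshold of 0.05 and grey points do not. The intervals of Il6, Il11, Osm, Il6st, Osmr, Lifr and Socs3 lie above 0, and those of Lif, Il6ra and Trim58 include 0.

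Among the receptors, Osmr, the specific chain of the oncostatin M receptor, was the one that passed. It read 8.78, 9.28, 8.96 and 9.12 in the knockout replicates, against 8.47, 8.09, 7.95 and 8.16 in the wild type replicates (log2 signal). All 4 knockouts lay above the highest wild type, by 0.31 at the least. The difference was 0.87 (95% interval 0.57 to 1.17), a 1.82-fold higher signal (limma adjusted p = 0.0231). The shift from the wild type mean was 0.79 in knockout replicate 3, without the pancreatic signal, and 0.89 on average in the other knockouts. The call ended without knockout replicate 2 or 4 (0.79 and 0.84, adjusted p = 0.0753 and 0.0580) and without wild type replicate 2, 3 or 4 (0.84, 0.80 and 0.86, adjusted p between 0.0557 and 0.0988).

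Il6st, which encodes the shared signal chain gp130, read 10.26, 10.36, 10.11 and 10.31 in the knockout replicates, against 9.99, 9.79, 9.60 and 9.85 in the wild type replicates (log2 signal). The groups were 0.11 apart at their nearest arrays. The difference of 0.45 (95% interval 0.23 to 0.67), or 1.37-fold, did not pass (limma adjusted p = 0.0792). Lifr, the chain that pairs with gp130 for leukaemia inhibitory factor, read 7.80, 8.32, 7.69 and 8.17 in the knockout replicates, against 7.45, 7.35, 7.18 and 7.47 in the wild type replicates. Its difference of 0.63 (95% interval 0.32 to 0.95) also missed the threshold (limma adjusted p = 0.0838), which it passed without knockout replicate 3 (0.73, adjusted p = 0.0384). In knockout replicate 3 the shifts of Il6st and Lifr were 0.30 and 0.32, and in the other knockouts 0.50 and 0.73 on average.

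Il6ra, the alpha receptor that binds IL-6 itself, read 7.48, 7.71, 7.66 and 7.54 in the knockout replicates, against 7.73, 7.63, 7.38 and 7.60 in the wild type replicates (log2 signal). The genotypes overlapped throughout. The difference was 0.01 with a 95% interval of -0.20 to 0.22 (limma adjusted p = 0.968).

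Socs3, the feedback inhibitor that STAT3 induces, read 7.18, 8.26, 7.91 and 7.20 in the knockout replicates, against 7.13, 6.70, 6.78 and 6.98 in the wild type replicates (log2 signal). Knockout replicates 2 and 3 were high, and replicates 1 and 4 lay barely above the highest wild type, the gap being 0.05. The difference was 0.74 (95% interval 0.24 to 1.25) and did not pass (limma adjusted p = 0.164). The other probe set of Socs3, with a lower signal, averaged 5.16 in knockouts and 4.80 in wild types, a difference of 0.36 ± 0.11 (SE; adjusted p = 0.181 over all probe sets).

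The knockout arrays did not order these genes alike. Replicate 3 was the lowest knockout for 4 of the 9 genes, Il6, Il11, Il6st and Lifr. Replicates 2 and 3 were the highest knockouts for another 4, Osm, Socs3, Lif and Il6ra. After each genotype's mean was subtracted, the 3 highest Pearson r over the 8 arrays among the 36 pairs of genes were those of Il6 and Il11 (0.901), Il6ra and Osmr (0.789) and Osmr and Lifr (0.78). The 2 lowest were those of Il11 and Lif (-0.819) and Il11 and Osm (-0.618). These are descriptions of the same 8 RNA samples, which share any difference in tissue makeup.

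**Figure D3:**
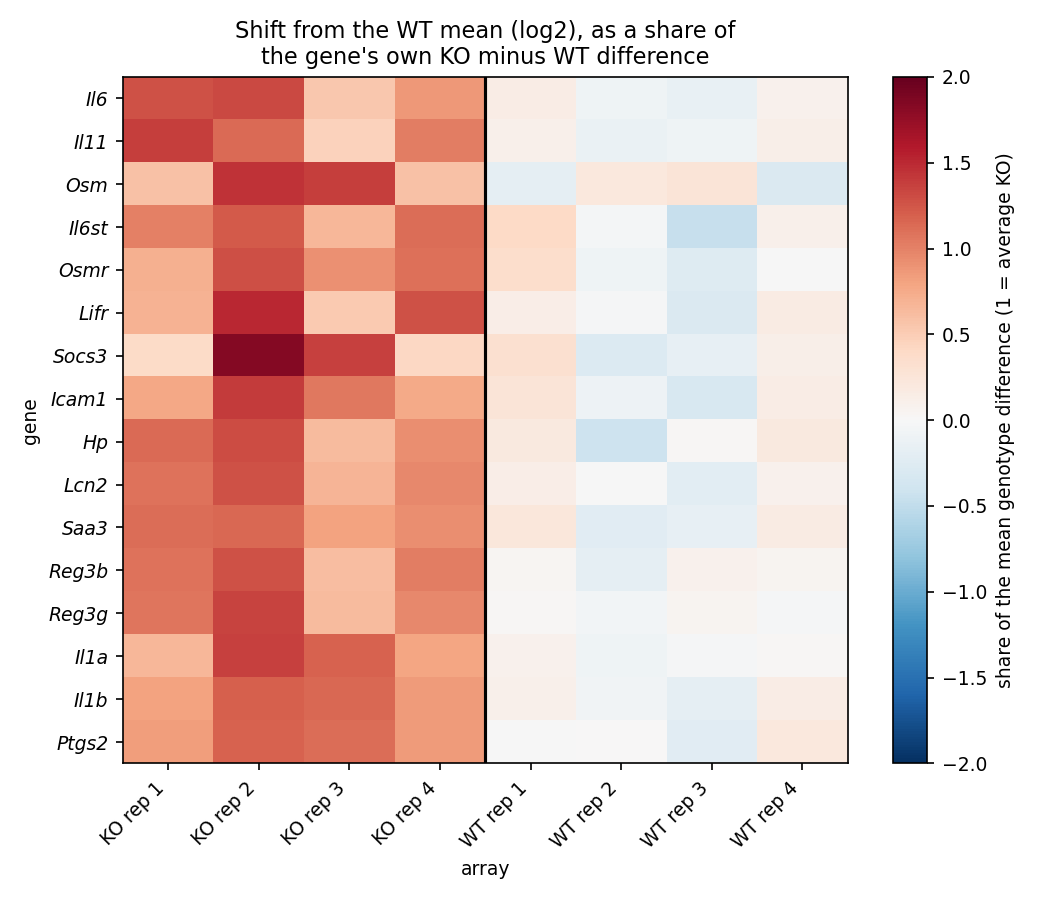
Shift of each array from the wild type mean (log2), divided by the gene's mean knockout minus wild type difference, so that 1 is an average knockout; rows are the IL-6 family genes (Lif and Il6ra, with differences near 0, are left out), the STAT3 target genes named in the text and the inducers Il1a, Il1b and Ptgs2, and columns are arrays with knockouts left. Knockout replicates 2 and 3 are darkest for Osm, Socs3, Icam1, Il1a, Il1b and Ptgs2, and replicate 3 is the palest knockout for Il6, Il11, Il6st, Lifr, Hp, Lcn2, Saa3, Reg3b and Reg3g.

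The genes whose values over the 8 arrays were most like those of Il6 were Timp1, an inhibitor of matrix proteases (Pearson r = 0.992), Sema6b (0.986), the siderophore-binding Lcn2 (0.985), Lgi2 (0.983) and the collagen gene Col1a2 (0.982). For Il11 they were the stromelysin Mmp10 (0.984), the collagen gene Col3a1 (0.982), Il6 (0.981), Lgi2 (0.98) and Arg1, an arginase (0.977). For Osmr they were Trim30b (0.986), Spon1 (0.983), Ggt5 (0.975), Thbs1, which encodes the matrix protein thrombospondin-1 (0.974), and Fam111a (0.971). After subtraction of the genotype means these 15 values of r lay between 0.835 and 0.98. Of these genes Lcn2, Lgi2, Col1a2, Mmp10, Il6, Trim30b, Spon1 and Thbs1 were called higher in the knockout. Leaving out 1 array ended the call in 6 of 8 fits for Lgi2, Col1a2 and Spon1 and in 3 of 8 for Mmp10, and in 0 of 8 for Lcn2, Trim30b and Thbs1. Timp1 missed the threshold (log2 difference 1.85, limma adjusted p = 0.0516). In knockout replicate 3 the shifts of Timp1, Lcn2, Col1a2 and Col3a1 were 0.84, 1.66, 0.44 and 0.17. In the other knockouts they were 2.19, 2.67, 0.71 and 0.72 on average. The 5 genes of each set were picked for the highest r over only 8 arrays, so high values are partly a result of the choice.

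No call was made in the rest of the family or in its signal chain. Of 9 measured further ligands and receptors, among them Clcf1, Ctf1 and Il27ra, 0 were called in either direction by limma (1 higher and 0 lower at an unadjusted p under 0.05). Their differences lay between -0.10 and 0.26 with a median of 0.04. Clcf1, a ligand of the ciliary neurotrophic factor receptor, had every knockout value above every wild type value (6.30, 6.37, 6.37 and 6.41 against 6.09, 6.11, 6.23 and 5.97; difference 0.26, limma adjusted p = 0.158). Ctf1 (cardiotrophin 1) had a difference of -0.09 and Il27ra, a receptor chain for IL-27, one of 0.20 (adjusted p = 0.683 and 0.538).

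Of 16 measured genes for receptor shedding, JAK-STAT transducers and feedback, 0 were called in either direction by limma (2 higher and 1 lower at an unadjusted p under 0.05), with a median difference of 0.06 and a range of -0.34 to 0.25. Adam10, a protease that can shed IL-6 receptor, had a difference of 0.25 and Jak2, a gp130-bound kinase, one of 0.17. Gab1, an adaptor of the SHP2 branch of gp130 signalling, had a difference of -0.28 (limma adjusted p of the 3 between 0.210 and 0.338). Stat3, picked after its value was seen, read 10.03, 10.17, 10.19 and 10.01 in the knockout replicates, against 10.06, 9.72, 10.05 and 9.69 in the wild type replicates (difference 0.22, adjusted p = 0.388). These are RNA levels, and STAT3 activity through phosphorylation was not measured.

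Of 27 measured STAT3 target genes, 22 had a difference above 0, and the median log2 difference was 0.35 against -0.0142 over all genes. At an unadjusted limma p under 0.05, 15 were higher and 1 lower. The lower one, Tff3, had every knockout value below every wild type value (difference -0.41, limma adjusted p = 0.0812). After adjustment 6 of the 27 were called higher in the knockout and 0 lower. The 6 were the epithelial lectins Reg3b (difference 5.53) and Reg3g (4.47), the acute-phase genes Saa3 (4.18) and Hp (2.43), Lcn2 (2.42) and the adhesion molecule gene Icam1 (0.79), with limma adjusted p between 0.00568 and 0.0361. Icam1 lost its call without knockout replicate 1, 2 or 3 and without wild type replicate 2, 3 or 4 (difference 0.68 to 0.84, adjusted p 0.0531 to 0.145). Hp lost its call without knockout replicate 1, 2 or 4 and without wild type replicate 2, 3 or 4 (2.09 to 2.58, adjusted p 0.0536 to 0.0772). Icam1 read 7.77, 8.26, 7.99 and 7.75 in the knockout replicates, against 7.36, 7.08, 6.91 and 7.28 in the wild type replicates. In knockout replicate 3 the shifts of Reg3b, Reg3g, Saa3, Hp, Lcn2 and Icam1 were 3.40, 2.82, 3.34, 1.52, 1.66 and 0.84, and in the other knockouts on average 6.24, 5.03, 4.45, 2.73, 2.67 and 0.77. These genes also answer to signals other than STAT3. The list was drawn up with earlier results of these data known, so its count is no independent evidence.

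Of 14 measured inducers of the family's cytokines, limma called 3 higher and 0 lower, with a median difference of 0.30. At an unadjusted limma p under 0.05, 7 were higher and 0 lower. This list was also drawn up with earlier results of these data known, so its counts are no independent evidence. Il1b, which encodes interleukin-1 beta and is a strong inducer of Il6 in stroma, read 10.42, 11.73, 11.60 and 10.57 in the knockout replicates, against 8.06, 7.47, 7.07 and 8.21 in the wild type replicates (difference 3.38, limma adjusted p = 0.00424). Il1a had a difference of 2.37 and Ptgs2, the inducible cyclooxygenase, one of 1.94 (adjusted p = 0.0125 and 0.00459). Il1a lost its call without wild type replicate 2 (2.30, adjusted p = 0.0632). Knockout replicates 2 and 3 were the highest for Il1a, Il1b and Ptgs2, as for Osm and Socs3. The other 11 inducers had differences of -0.08 to 0.53.

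**Figure D4:**
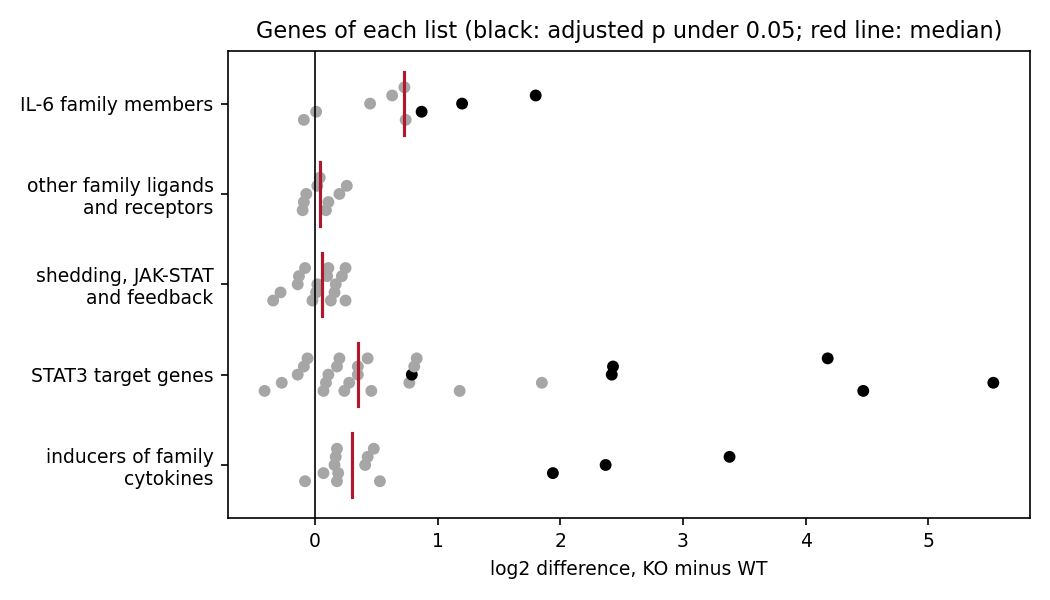
Log2 difference, knockout minus wild type, of each measured gene in the family and in 4 lists around it, with black points past the adjusted threshold of 0.05, grey points not past it and the list median as a red line. The further ligands and the JAK-STAT list lie around 0, and the black points are 6 STAT3 target genes, 3 inducers and the 3 called family genes. Some grey STAT3 target genes, such as Timp1 at 1.85, lie further right than the called Icam1 at 0.79.

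Markers of the cell types in the tissue were read on the same arrays. Of 12 neutrophil markers 9 were called higher and 0 lower, and the mean of the list was 6.69 to 7.43 in knockouts and 5.13 to 5.51 in wild types (log2). Of 10 fibroblast markers 1 was called higher, Col1a2, 6 were higher at an unadjusted p under 0.05 and all 10 differences lay above 0, with list means of 9.07 to 9.39 in knockouts and 8.64 to 9.06 in wild types. Of 12 monocyte and macrophage markers limma called 0 (4 higher at an unadjusted p under 0.05), and the list means overlapped (8.47 to 8.92 in knockouts and 7.99 to 8.97 in wild types). T cell markers gave 0 limma calls among 8 measured (1 higher at an unadjusted p under 0.05), with means of 5.97 to 6.62 in knockouts and 5.72 to 6.63 in wild types. Of 7 B cell markers 1 was called higher, Cr2, and all 7 were higher at an unadjusted p under 0.05, with list means of 7.40 to 8.0 in knockouts and 6.11 to 7.39 in wild types. Of 8 genes measured in a colonocyte list 2 were called lower, Slc37a2 and Car4. The list means were 10.63 to 10.89 in knockouts and 11.17 to 11.53 in wild types. This list includes Muc2 and Cdx2, with differences of -0.01 and 0.19. Smooth muscle markers gave 0 limma calls among 8 (5 lower at an unadjusted p under 0.05; list means 10.15 to 10.73 in knockouts and 10.50 to 10.92 in wild types). Endothelial markers also gave 0 limma calls among 8 (4 higher at an unadjusted p under 0.05; list means 7.21 to 7.58 in knockouts and 7.01 to 7.39 in wild types). The shift of each list mean from wild type is given for knockout replicate 3, then for the other knockouts on average. It was 1.74 and 1.69 for neutrophils, 0.17 and 0.45 for fibroblasts, and 0.42 and 0.21 for monocytes and macrophages. For T cells it was 0.36 and 0.05, for B cells 1.22 and 0.87, and for colonocytes -0.39 and -0.58. For smooth muscle it was -0.56 and -0.32, and for endothelium 0.0 and 0.33. Of the markers measured in these 8 lists, 0 had a mean below the upper quartile of olfactory receptor genes (4.26). The part of these cells in the differences of Il6, Il11, Osm and Osmr was not tested.

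With each array's mean of the pancreatic acinar list as a covariate, the difference was 1.05 for Il6, 0.63 for Il11, 0.75 for Osmr and 0.94 for Osm. In this fit 0 of the 9 genes passed in limma (5 were higher at an unadjusted p under 0.05). This mean was high in knockout replicates 1, 2 and 4 and low in every wild type, so covariate and genotype can hardly be told apart. Calls over all genes fell from 87 to 2 higher and from 41 to 0 lower. The mean of 8 measured Hox genes that mark the posterior colon was 6.14, 6.16, 6.39 and 6.61 in knockout replicates 1 to 4. In wild types it was 6.48 to 6.69. Of these 8 genes 0 had a difference above 0, 4 were lower at an unadjusted limma p under 0.05 and 0 were called. Whether the samples differ in position along the colon was not tested. With this mean as a covariate the difference was 1.33 for Il6, 0.98 for Il11, 0.94 for Osmr and 0.58 for Osm, again with 0 calls (6 higher unadjusted). Knockout replicate 3 alone against the 4 wild types gave 0.98, 0.55, 0.79 and 1.01 with 0 calls (5 higher unadjusted), in a fit where this lone array is assumed to vary like the wild types.

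**Figure D5:**
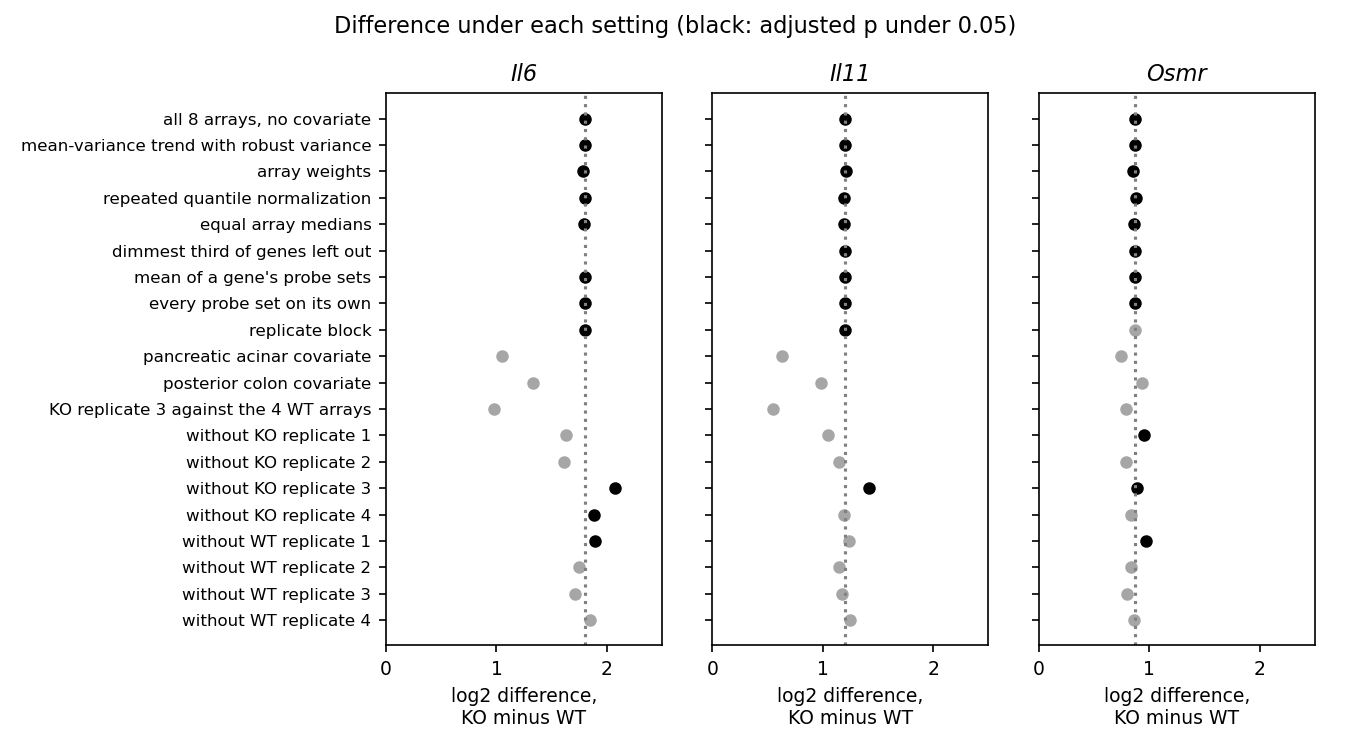
Log2 difference, knockout minus wild type, of Il6, Il11 and Osmr under each processing setting (rows), with black points past the adjusted threshold of 0.05 and a dotted line at the value from all 8 arrays without covariate. All points lie above 0; the lowest are 0.98 for Il6, 0.55 for Il11 and 0.75 for Osmr, and many fits with fewer arrays or a covariate miss the threshold.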

How the data were processed

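The deposited log2 values come from RMA in Affymetrix Expression Console 1.4, per the submitters' processing notes. RMA corrects background, equalises array distributions and gives 1 value per probe set. The sources used here do not give filters, the probe set level or scan batches. Each mouse's RNA (200 ng, per the labels' protocols) was labelled with biotin. Array medians lay between 5.73 and 5.83. Arrays have no sequencing depth, and their number limits the precision.

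The annotation gave 1 symbol for 23521 of 41345 probe sets, several for 1814 and none for 16010. Symbols were updated by Entrez identifier (23328 matched, GRCm38.p6). Each gene was its brightest probe set. The fit was lmFit and eBayes of limma 3.58.1 (R 4.3.3) without covariate, adjusted over 22180 genes, and the code was tested on simulated data. Exact permutation used the 70 assignments of 4 of 8 arrays. Named genes are the family members, Trim58, per list the called genes and up to 3 with the smallest p, and the 5 genes most like each called member. The members and lists were chosen with earlier results of these data known. A comparison of protein sequences was planned and not made. Of 72 pathway list entries 66 were measured. Alternatives are given in the closing section.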

Additional observations from a re-analysis of the deposited data

Results flagged for a closer look

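Among 37 named genes, the 4 arrays of each genotype were checked for a single array far from the other 3. In 1 of these 74 groups an array stood apart: Ctf1 (cardiotrophin 1) read 7.12 in knockout replicate 4 and 7.27 to 7.28 in the other knockouts. The gap was 0.907 of the group's range, above Dixon's critical value for 4 samples. Chance alone flags about 1 in 20 groups.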

How the results depend on the processing

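Direction was kept for Il6, Il11, Osm, Il6st, Osmr, Lifr and Socs3 under each alternative run (18 for Il6, 19 for the others), while Lif and Il6ra, both near 0, changed sign in 2 and 4. The counts of genes called higher and lower (87 and 41) became 56 and 8 with the replicate block, 2 and 0 with the pancreatic covariate, 2 and 0 with the posterior colon covariate, and 14 and 0 with knockout replicate 3 alone against the wild types. Genes called lower numbered 64 with a variance trend, 69 with array weights and 80 without the dimmest 33.3% of genes, a filter that also removes Il6. Leaving out 1 array gave 24 to 172 higher (172 without knockout replicate 3, 24 without wild type replicate 2) and 1 to 80 lower. The 3 family genes called became 0 with either covariate and with knockout replicate 3 alone, and 0 to 4 when 1 array was left out: 4 without knockout replicate 3, 2 without wild type replicate 1, 1 without knockout replicate 1 or 4, and 0 without knockout replicate 2 or wild type replicate 2, 3 or 4. STAT3 target genes called higher (6) became 0 with either covariate and 1 with knockout replicate 3 alone, and 0 to 1 were called lower when 1 array was left out. The 3 inducers called became 0 with either covariate. The causes were not tested. Deviations of same-numbered arrays correlated at -0.14, -0.16, 0.04 and 0.05, which gives no sign that the replicate block pairs samples but cannot exclude it. With this block Osmr, Icam1 and Hp lost their calls (adjusted p = 0.0827, 0.114 and 0.0792) and Osm gained one (0.0368). Hp also lost its call with a variance trend (0.0692).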

Other observations

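Osm and Socs3 were not called, and the genes most like them over the 8 arrays were looked up after their values were seen. For Osm they were Mrgpra2a (Pearson r = 0.994), Trem1, an amplifying receptor of neutrophils and monocytes (0.967), the chemokine gene Ccl4 (0.966), Trem3 (0.963) and Rhag (0.957). For Socs3 they were the chemokine gene Ccl3 (0.985), Hcls1, a signalling protein of blood cells (0.984), Mmp25 (0.977), Arhgap45 (0.977) and Bfsp2 (0.973). None of these 10 genes passed the adjusted test. Trem1 came nearest to the limma threshold (adjusted p = 0.0599 for a log2 difference of 1.40). Ccl3 differed by 1.47 (adjusted p = 0.173).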
